A study of Saccharomyces cerevisiae with 36 samples.

Results

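The nucleolar ribosome assembly genes of budding yeast (Saccharomyces cerevisiae) described here are the 41 genes, of 7126 in the deposited count table, whose standard name is UTP, NOP, NOC, NSA or NUG followed by a number. The names alone chose them. The choice was made with their response over the 12 groups known, including the deeper fall in heat-shocked cells of the strain labelled msn2/4∆. All 41 passed the filter on low counts, which left 6109 genes for testing. RefSeq places them on 13 chromosomes of build R64, each as 1 coding exon that overlaps no other annotated gene, with coding lengths from 177 bases (NOP10) to 7482 bases (UTP20).

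Ribosomes are built in the nucleolus, where RNA polymerase I transcribes the ribosomal RNA precursor and assembly factors fold, modify and cut it while ribosomal proteins are added. The UtpA and UtpB complexes bind the precursor early and found the small-subunit processome, snoRNP proteins guide methylation and pseudouridylation, and a further set of factors builds the precursor of the large subunit. In yeast the genes for these factors form the ribosome biogenesis regulon, which is transcribed in growing cells and turned down together with the ribosomal protein genes in many stresses. By role, 6 of the 41 encode UtpA subunits, 4 encode UtpB subunits, 13 encode other factors of the small (40S) subunit, 4 encode snoRNP proteins and 14 encode factors of the large (60S) subunit.

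The study sequenced RNA of 4 strains, each under 3 conditions and in 3 libraries, which makes 12 groups and 36 libraries. Cells grown in YPD at 25 °C to an OD600 of 0.8 stayed untreated, spent 15 min at 37 °C (heat shock), or stayed at 25 °C with azetidine-2-carboxylic acid (AzC) at 10 mM for 1 h. AzC replaces proline in newly made proteins, which then misfold. Heat shock factor Hsf1 drives chaperone genes, and general stress genes are driven by the related pair Msn2 and Msn4. All strains are of mating type a and carry his3∆1, leu2∆0, ura3∆0 and met15∆0. WT carries no further change. In hsf1∆ the HSF1 gene is replaced by kanMX and a cassette that expresses the chaperones YDJ1, HSC82 and SSA2 from constitutive promoters, which keeps the strain alive. HSF1+ carries that cassette and an HSF1+ gene, so it matches hsf1∆ for the cassette (its genotype also lists LYS2). The strain labelled msn2/4∆ carries msn2::hphMX4 and msn4::natMX4. The labels call the replicates triplicates and do not say whether they came from separate cultures or clones, so p-values measure only the spread between these libraries, which may be technical.

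Library totals lay between 8159203 and 99558095 counts, with 4 libraries (WT untreated replicates 2 and 3, HSF1+ AzC replicates 1 and 2) at 42724231 or more and the other 32 at 15448180 or fewer. In untreated cells HSF1 stood at 98.4 ± 3.76 CPM (read counts scaled to library size, per 1e+06 reads; SD, n = 3) in WT, 55.4 ± 1.52 in HSF1+ and 14.6 ± 2.15 in hsf1∆. MSN2 stood at 132.4 ± 3.12 CPM in WT and at 1.41 ± 0.596 in untreated cells labelled msn2/4∆. MSN4 did not follow the label, with 38.4 ± 7.53 CPM in untreated WT and 52.9 ± 4.81 in untreated cells labelled msn2/4∆, and with 115.4 ± 10.4 and 40.5 ± 0.471 CPM after heat shock. Where on the gene these reads lie is not given by counts per gene, so "labelled msn2/4∆" applies wherever that strain is named. The summed level of 6 MATa marker genes lay between 321 and 2204 CPM, and that of 4 MATalpha markers between 49.7 and 105.8 CPM, of which SAG1 held the greater share while MF(ALPHA)1 and MF(ALPHA)2 stayed below 1 CPM in their group means.

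The 300 bases around the start codon (250 before and 50 from its first base on, RefSeq R64) carried the motifs named for this regulon in nearly all members. PAC (GATGAG, bound in yeast by the repressors Dot6 and Tod6) was found on either strand in 36 of the 41 windows, or 87.8%, against 20.4% of 6001 windows of all annotated genes. RRPE (AAAAATTT, bound in yeast by Stb3) was found in 34 windows, or 82.9%, against 14.1%. Both were found in 30 windows, or 73.2%, against 5.63%. Only UTP22 held neither, as did 71.1% of all windows. The median match began at position -111 for PAC (57 matches) and -134 for RRPE (48 matches), counted from the A of the start codon, where overlapping RRPE matches on opposite strands count separately. The motif of Msn2 and Msn4 (STRE, AGGGG) was in 4 windows, or 9.76%, against 21.6%, and a motif of Hsf1 (HSE, GAANNTTC) in 5, or 12.2%, against 11.8%. A match is a run of letters and does not show that a factor binds there.

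The windows of 3 genes are shown, because UTP25 and NOP6 have the lowest and the highest difference of heat-shock response between the strain labelled msn2/4∆ and WT, and NOP1 encodes fibrillarin, a core protein of the nucleolus. Each reads 5′ to 3′ on the gene's strand, and capitals mark PAC and RRPE matches on either strand. UTP25 lies at chrIX:193146-193445 (minus strand), NOP6 at chrIV:77917-78216 (minus strand) and NOP1 at chrIV:427114-427413 (plus strand).
UTP25: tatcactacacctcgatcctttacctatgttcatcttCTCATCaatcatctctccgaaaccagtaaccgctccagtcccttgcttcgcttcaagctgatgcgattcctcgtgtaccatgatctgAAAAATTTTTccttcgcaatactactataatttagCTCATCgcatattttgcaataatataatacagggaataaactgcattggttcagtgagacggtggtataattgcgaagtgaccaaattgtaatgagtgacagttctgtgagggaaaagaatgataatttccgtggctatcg
NOP6: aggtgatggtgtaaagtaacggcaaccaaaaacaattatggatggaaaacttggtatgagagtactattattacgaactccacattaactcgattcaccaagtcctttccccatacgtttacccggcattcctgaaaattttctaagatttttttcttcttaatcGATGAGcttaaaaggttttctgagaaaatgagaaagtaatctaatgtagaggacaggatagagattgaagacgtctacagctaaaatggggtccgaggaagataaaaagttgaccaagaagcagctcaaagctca
NOP1: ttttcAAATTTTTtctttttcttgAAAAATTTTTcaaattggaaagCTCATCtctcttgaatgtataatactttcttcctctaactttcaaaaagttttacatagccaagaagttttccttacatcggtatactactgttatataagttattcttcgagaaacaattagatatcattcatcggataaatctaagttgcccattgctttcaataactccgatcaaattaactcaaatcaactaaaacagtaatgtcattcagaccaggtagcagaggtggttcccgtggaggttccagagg
UTP25 and NOP1 hold both motifs, and NOP6 holds a single PAC match and no RRPE match.

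In untreated WT cells the members differed widely in level per length. NOP10, a small H/ACA snoRNP protein, was highest at 1284 ± 166 CPM per kb of coding length (SD, n = 3), ahead of NOP1, the fibrillarin methyltransferase, at 971 ± 111.3. The other box C/D snoRNP proteins NOP56 and NOP58 followed at 636 ± 29.3 and 471 ± 25.9 CPM per kb, and the highest factor of the large subunit was NOP7 at 366 ± 41.04. UTP20, the longest member, was lowest at 33.4 ± 5.58 CPM per kb, below UTP10 at 57.6 ± 8.52 and NOP8 at 62.8 ± 11.6. NOP10 and NOP1 were separated by more than their SDs, while UTP10 and NOP8 were not. The 41 genes together held 11119 ± 1007 CPM in untreated WT.

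Heat shock lowered every member in every strain. In WT all 41 fell (edgeR quasi-likelihood test, Benjamini-Hochberg adjusted p below 0.05), where 38.1% of all genes tested fell, and in all 41 the 3 heat-shock libraries lay wholly below the 3 untreated ones, against 37.9% of all genes. Their median log2 change was -2.72, a median fall of 6.57-fold, while the median of all genes was 0.05, and adjusted p ran from 3.33e-18 to 0.000316. All 41 passed a 2-fold minimum as well, against 17.3% of all genes. The counts are relative to all other RNA in a library, so fewer transcripts of these genes and a change in the total RNA per cell cannot be told apart.

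**Figure D1:**
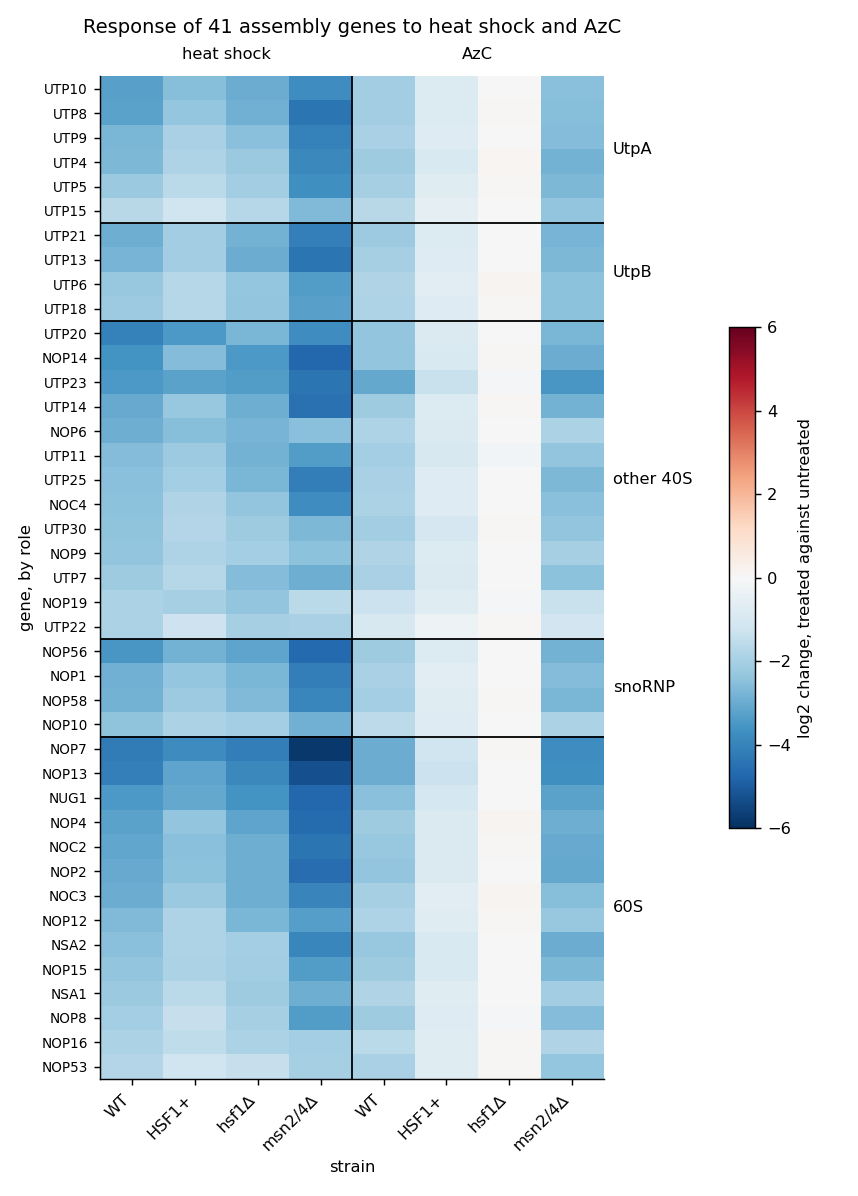
Log2 change of each of the 41 genes (vertical axis, by role) in each strain (horizontal axis), after heat shock on the left and AzC on the right, against untreated cells of the same strain. The heat-shock columns are blue throughout and deepest in msn2/4∆ (median -3.74), and the AzC column of hsf1∆ is near 0 (median 0.03).

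The snoRNP genes are the most abundant and show the pattern plainly. NOP1 had 986, 1047 and 834 CPM in untreated WT replicates 1 to 3 and 222, 97.5 and 66.0 CPM after heat shock, a log2 change of -2.90 ± 0.38 (SE; edgeR adjusted p 8.00e-08). Every heat-shocked library lay far below the lowest untreated one, and replicate 1 kept the most. NOP56 changed by -3.49 ± 0.37, NOP58 by -2.85 ± 0.42 and the H/ACA protein gene NOP10 by -2.39 ± 0.19 on the log2 scale. NOP10 went from 261, 215 and 206 CPM to 59.4, 32.3 and 38.4, so its replicates were closer together than those of NOP1.

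Among factors of the large subunit, NOP7, a protein required for processing of the precursor that also links assembly to cell growth, had the deepest fall of all members in WT. It had 683, 730 and 584 CPM before and 73.3, 21.0 and 14.4 CPM after heat shock, a log2 change of -4.21 ± 0.51 (edgeR adjusted p 1.40e-08). NOP13 changed by -4.11 ± 0.40, the nuclear GTPase gene NUG1 by -3.43 ± 0.42 and the rRNA methyltransferase gene NOP2 by -3.03 ± 0.46. NOP53, a late factor that recruits the nuclear exosome, fell least of the 14, by 1.78 ± 0.27 on the log2 scale, from 234, 215 and 183 CPM to 89.5, 51.8 and 43.3. The groups of NOP53 still did not overlap.

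UTP20, a scaffold of the small-subunit processome, had closely spaced heat-shocked libraries. It had 279, 268 and 202 CPM in untreated WT and 17.9, 12.4 and 14.7 CPM after heat shock, a log2 change of -4.06 ± 0.17 with the lowest adjusted p of the 41 (edgeR, 3.33e-18). In UtpA the change ran from -3.26 ± 0.42 for UTP10 to -1.68 ± 0.32 for UTP15, the shallowest member in WT. UTP22, the gene with neither motif, had 337.5, 322.0 and 284.5 CPM before and 114.3, 76.7 and 63.7 CPM after heat shock, a log2 change of -1.89 ± 0.14. The role groups had close medians in WT, at -2.88 for snoRNP genes, -2.82 for the large subunit, -2.73 for UtpA, -2.52 for UtpB and -2.50 for other factors of the small subunit.

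**Figure D2:**
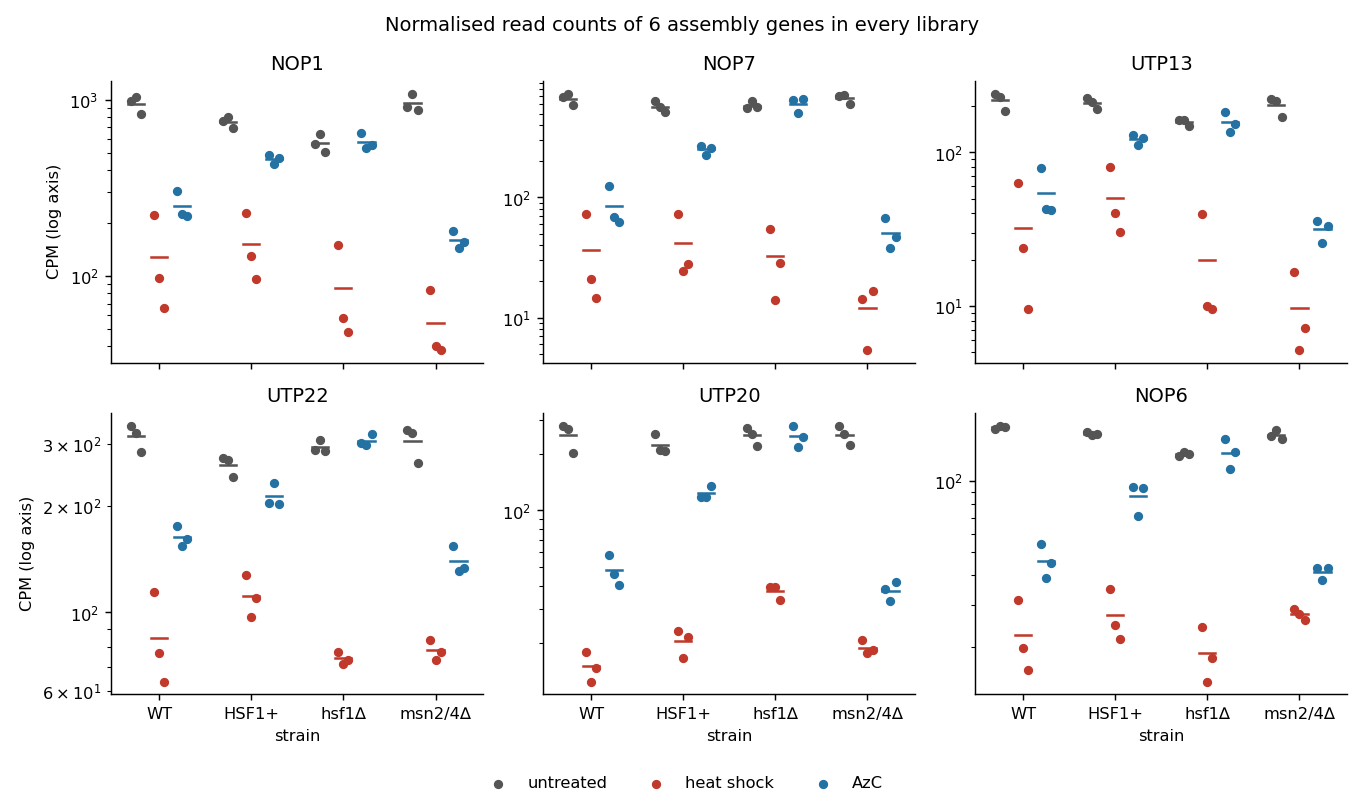
Normalised read count (CPM, log axis) of 6 members in all 36 libraries, with 1 point per library, strains along the horizontal axis, colours for treatment and a bar at the mean of 3. Untreated libraries lie close together, heat-shocked replicates of NOP1, NOP7 and UTP13 are spread widely, those of UTP20 are not, and in hsf1∆ the AzC points lie among the untreated ones.

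In hsf1∆ all 41 members fell on heat shock (38.4% of all genes; libraries wholly below in 41, against 38.5%), with a median log2 change of -2.73 beside -0.01 for all genes and edgeR adjusted p from 2.75e-15 to 0.000692. HSF1+ also lost all 41 (36.5% of all genes; wholly below in 41, against 37.2%), with a median of -2.04 beside 0.03 and adjusted p from 8.52e-17 to 0.00573. In the strain labelled msn2/4∆ all 41 fell (34% of all genes; wholly below in 41, against 35.3%), with a median of -3.74 beside 0.11 and adjusted p from 1.58e-17 to 9.83e-07. The median fall was 6.64-fold in hsf1∆, 4.10-fold in HSF1+ and 13.4-fold in the strain labelled msn2/4∆. NOP7 was the deepest in each, at -4.16 ± 0.50, -3.77 ± 0.49 and -5.79 ± 0.55 on the log2 scale. NOP53 was the shallowest in hsf1∆ (-1.39 ± 0.27) and HSF1+ (-1.17 ± 0.26), and NOP19 in the strain labelled msn2/4∆ (-1.60 ± 0.20). All 41 passed the 2-fold minimum in each of these strains too, where 17.4%, 15.5% and 15.7% of all genes did.

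The replicates of the heat-shock groups differed in depth of response far more than the untreated ones. The median member of the WT heat-shock libraries stood at -1.85, -3.08 and -3.94 from the untreated mean on the log2 scale in replicates 1, 2 and 3. The same medians were -1.92, -3.27 and -3.43 in hsf1∆, -1.50, -2.41 and -2.56 in HSF1+, and -3.21, -4.45 and -4.16 in the strain labelled msn2/4∆. Replicate 1 had the shallowest response in every strain. The 137 cytosolic ribosomal protein genes spread less over the same libraries, with medians of -3.19, -3.64 and -3.58 in WT and -3.97, -4.13 and -3.52 in hsf1∆. The labels name no batch, and the part of any handling difference was not tested.

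**Figure D3:**
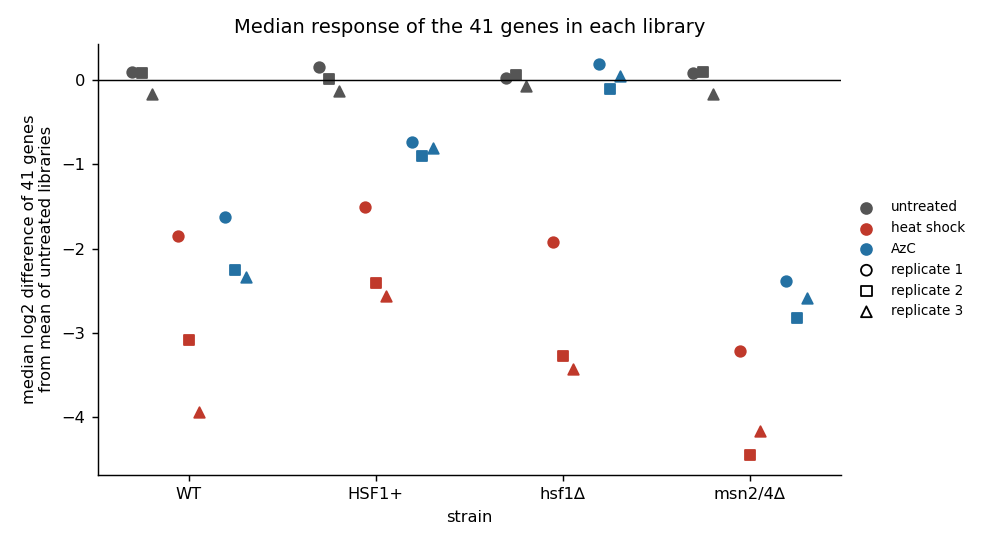
Median log2 difference of the 41 genes from the mean of the untreated libraries of the same strain, with 1 point per library, strains along the horizontal axis, colours for treatment and symbols for replicate. Heat-shock replicate 1 is the shallowest in all 4 strains, with -1.85 in WT against -3.94 in replicate 3, and the AzC libraries of hsf1∆ lie between -0.11 and 0.19.

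Whether the response depends on Msn2 and Msn4 was asked by comparing the response of the strain labelled msn2/4∆ with that of WT. The fall was deeper in the strain labelled msn2/4∆ for 38 of the 41 members, with a median difference of responses of -1.09 on the log2 scale beside 0.02 for all genes, but edgeR called 0 of the 41 at an adjusted p below 0.05. At an unadjusted p below 0.05 there were 15, all lower, DESeq2 called 0, and of all genes 13.9% were called lower and 16.3% higher. The members with the largest differences were UTP25 at -1.64 ± 0.69 (edgeR adjusted p 0.0707), UTP13 at -1.62 ± 0.69 (0.0744), NOP7 at -1.58 ± 0.66 (0.0699) and NOP2 at -1.56 ± 0.63 (0.0609). The median of the role groups ran from -1.21 for the large subunit to -0.75 for other factors of the small subunit. With replicate as a block edgeR called 19 lower, beside 18.6% of all genes, though same-numbered pairs did not all correlate above 0.1 in this comparison. Single libraries moved the count without the block widely. Shares of all genes are not given for these refits, so a change in calls over all genes cannot be told apart. It was 24 lower without WT heat-shock replicate 3, 21 lower without msn2/4∆ heat-shock replicate 1, 2 lower without WT heat-shock replicate 2, and 0 lower and 2 higher (NOP6 and NOP19) without WT heat-shock replicate 1, where the median difference was -0.32.

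The libraries behind these values show both the difference and its spread. UTP25, a processome factor, had 58.4, 22.2 and 9.2 CPM in heat-shocked WT and 14.6, 7.0 and 6.4 CPM in heat-shocked cells labelled msn2/4∆. UTP13, a UtpB subunit, had 63.4, 23.7 and 9.5 CPM in the former and 16.5, 5.2 and 7.1 CPM in the latter. In each gene WT replicate 3 lay within the range of the strain labelled msn2/4∆, so the groups overlapped, although within each replicate number the strain labelled msn2/4∆ was lower in both genes. NOP6, a small-subunit factor, went the other way, with 31.4, 19.7 and 15.96 CPM in WT and 28.8, 27.6 and 25.8 CPM in the strain labelled msn2/4∆, a difference of responses of 0.41 ± 0.26 (adjusted p 0.233). UTP20 (0.32 ± 0.22) and NOP19 (0.29 ± 0.29) were the other members above 0. UTP22 was nearly level, with 114.3, 76.7 and 63.7 CPM in WT and 83.8, 73.4 and 77.2 CPM in the strain labelled msn2/4∆.

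Heat-shocked libraries of the strain labelled msn2/4∆ were also compared directly with heat-shocked WT. In that comparison 32 of the 41 members were lower and 0 higher (edgeR adjusted p below 0.05), where 25.1% of all genes were lower and 27.8% higher, and the median difference was -1.16 beside 0.02 for all genes. UTP13 stood at -1.72 ± 0.52 (adjusted p 0.00743), UTP25 at -1.67 ± 0.52 (0.00937) and NOP2 at -1.62 ± 0.47 (0.00503). DESeq2 also called 32 lower and 0 higher, beside 26.2% and 26.7% of all genes, and 38 members were below 0. The library ranges overlapped in all 41, where 23.3% of all genes lay wholly below and 30% wholly above. The count of 32 fell to 0 lower and 3 higher (median -0.35) without WT heat-shock replicate 1. It fell to 6 lower without msn2/4∆ heat-shock replicate 2, to 11 lower without msn2/4∆ heat-shock replicate 3, and to 0 when those 2 groups were fitted alone. Shares of all genes are not given for these refits either. The replicate numbers were taken to pair these libraries, although msn2/4∆ replicate 2 correlated more with another WT replicate. With replicate as a block 32 were lower and 1 higher, UTP20 (0.33, edgeR adjusted p 0.0395), beside 28.5% and 30.8% of all genes. Before treatment no difference between the strains was detectable in these genes, with 0 of 41 called by edgeR, 0 at an unadjusted p below 0.05, 0 by DESeq2 and a median difference of -0.05 (-0.13 to 0.03 with 1 library left out in turn), where 0.786% of all genes were called lower and 0.262% higher.

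**Figure D4:**
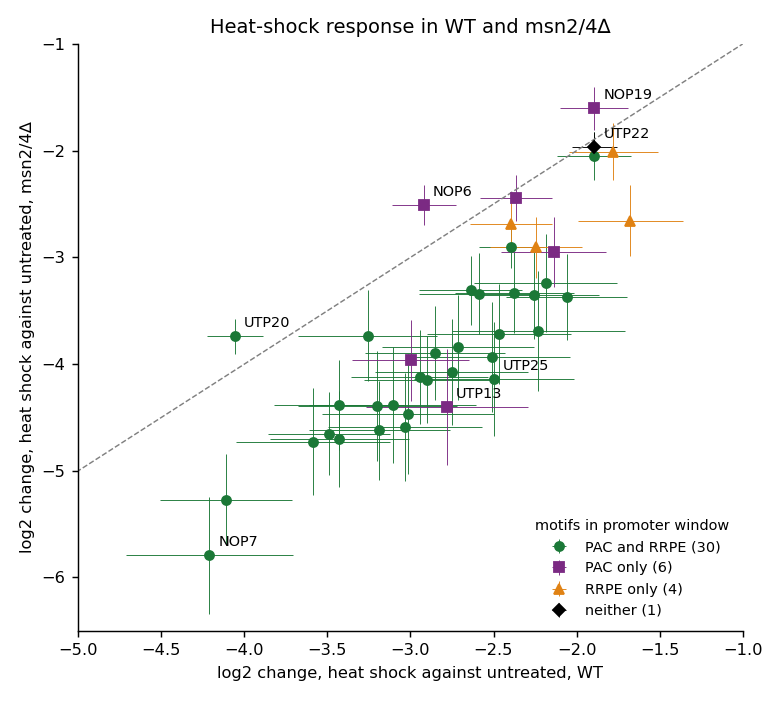
Log2 change on heat shock in WT (horizontal axis) and in the strain labelled msn2/4∆ (vertical axis) for each of the 41 genes, with bars of 1 SE, symbols for the motifs in the promoter window and a dashed line of equal response. The 30 genes with PAC and RRPE have medians of -2.88 and -4.00, and only NOP6, UTP20 and NOP19 lie above the line.

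The motif classes overlapped in depth of response, and their differences were not tested. The 30 members with PAC and RRPE had a median log2 change of -2.88 in heat-shocked WT and -4.00 in heat-shocked cells labelled msn2/4∆. The 6 with PAC only (NOC3, NOP19, NOP6, NOP9, UTP13 and UTP7) had -2.57 and -2.73, and the 4 with RRPE only (NOP53, NSA1, UTP15 and UTP30) had -2.01 and -2.67. UTP22, with neither, had -1.89 and -1.96. The difference of responses had a median of -1.17 in the class with both motifs, -0.45 with PAC only and -0.48 with RRPE only. UTP13 belonged to the PAC-only class and was still among the lowest, and classes of 6, 4 and 1 genes are too small for more than a description.

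Of 8 listed regulators of this regulon or of the ribosomal protein genes, 3 fell and 3 rose in heat-shocked WT. There 38.1% of all genes fell and 42% rose, so these counts are near the background. In heat-shocked cells labelled msn2/4∆ 6 fell and 2 rose, beside 34% and 43.5% of all genes. The following were singled out after their values were seen. DOT6, which encodes a repressor that binds PAC, had 150 ± 47.0 CPM in untreated and 260 ± 63.5 in heat-shocked WT (SD, n = 3; log2 change 0.79 ± 0.21, edgeR adjusted p 0.00104). In the strain labelled msn2/4∆ it had 139 ± 21.6 and 77.0 ± 3.92 CPM (log2 change -0.85 ± 0.21, adjusted p 0.000667). The responses of DOT6 differed by -1.64 ± 0.30 on the log2 scale (adjusted p 0.000116). TOD6, its paralog, fell in both strains, by 2.41 ± 0.53 and by 4.22 ± 0.60 on the log2 scale, and its difference of responses, -1.81 ± 0.78, missed the threshold (adjusted p 0.079). STB3, which encodes a repressor that binds RRPE, rose by 0.99 ± 0.08 in WT and by 0.98 ± 0.08 in the strain labelled msn2/4∆, a difference of responses of -0.01 ± 0.12. FHL1, an activator of ribosomal protein genes, changed by -0.92 ± 0.08 and -0.63 ± 0.08.

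After AzC all 41 members were called lower in WT and all 41 in the strain labelled msn2/4∆, while 0 were called in hsf1∆. In HSF1+ all 41 changes were below 0, but fewer were called. In WT all 41 fell (32.7% of all genes; libraries wholly below in 41, against 33.7%), 40 of them at least 2-fold (11.1% of all genes), with a median log2 change of -2.03 beside 0.02 for all genes. UTP23, a small-subunit factor, fell most, from 141.3, 127.3 and 128.1 CPM to 21.7, 11.6 and 14.1 CPM, a log2 change of -3.06 ± 0.38 (edgeR adjusted p 4.89e-08). UTP22 fell least, from 337.5, 322.0 and 284.5 CPM to 175.4, 154.5 and 161.3 CPM, a log2 change of -0.94 ± 0.13 (adjusted p 3.82e-07). The median members of the 3 WT AzC libraries stood at -1.63, -2.25 and -2.34 from the untreated mean, again shallowest in replicate 1.

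In the strain labelled msn2/4∆ AzC lowered all 41 (31% of all genes; wholly below in 41, against 33.3%), with a median of -2.60 beside 0.05 and a range from -3.73 ± 0.49 for NOP7 to -1.13 ± 0.13 for UTP22. The difference from the response of WT was below 0 for all 41, with a median of -0.59 beside 0.02 for all genes, but edgeR and DESeq2 called 0 of 41 and 0 had an unadjusted p below 0.05, where 1.05% of all genes were called lower and 0.524% higher. Without WT AzC replicate 1 that median was -0.30. The largest of these differences were NOP4 at -0.79 ± 0.55, NOC2 at -0.78 ± 0.66 and NOP7 at -0.77 ± 0.63.

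In HSF1+ the AzC response was shallow and close to the threshold. Here 18 of 41 members fell (edgeR adjusted p below 0.05), where 21.9% of all genes fell, 27 had an unadjusted p below 0.05, and in all 41 the AzC libraries lay wholly below the untreated ones, against 29.1% of all genes. The median log2 change was -0.80 beside 0.01 for all genes, from -1.32 ± 0.34 for UTP23 to -0.29 ± 0.13 for UTP22. NOP1 went from 761.5, 801 and 691 CPM to 487, 434 and 468 CPM (log2 change -0.70 ± 0.36, adjusted p 0.11). The SE rests on a spread per gene shared by all 12 groups, the widely spaced heat-shock replicates among them. Fitted to these 2 groups alone, NOP1 had an edgeR adjusted p of 7.11e-05. NOP7 went from 635.5, 561.5 and 517.1 CPM to 270, 224 and 259 CPM (log2 change -1.19 ± 0.44, adjusted p 0.0304). DESeq2 called 19, beside 26.6% of all genes, and 4 members passed a 2-fold minimum, against 1.18% of all genes. The count fell to 8 without HSF1+ untreated replicate 1, 10 without HSF1+ AzC replicate 3 and 11 without HSF1+ AzC replicate 2. It rose to 41 when those 2 groups were fitted alone, with a spread of their own. For these refits the shares of all genes are not given.

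In hsf1∆ no member responded measurably to AzC. edgeR called 0 of 41, 0 had an unadjusted p below 0.05, and DESeq2 called 0, where 0.0164% of all genes (1 gene) were called lower and 0% higher. The median log2 change was 0.03, from -0.16 for UTP11 to 0.15 for NOP4, with 33 members above 0 and 8 below. With 1 library left out in turn that median ran from -0.05 to 0.10. NOP1 had 567, 644 and 506 CPM in untreated and 650, 537 and 553 CPM in AzC-treated hsf1∆ cells. NOP7 had 554, 630 and 562 CPM before and 651, 501 and 655 CPM after AzC, a log2 change of 0.05 ± 0.44. In all 41 members the AzC and untreated libraries of hsf1∆ overlapped. This is near the background, as only 4.04% of all genes lay wholly below and 4.08% wholly above. The same strain lowered all 41 on heat shock, as above, and heat shock lay below AzC in all 41 there.

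The strains' AzC responses were then set against each other. Against WT, the response of HSF1+ was shallower in 16 of 41 members (edgeR adjusted p below 0.05), where 11.3% of all genes differed in that direction. All 41 differences were above 0 and 34 had an unadjusted p below 0.05, and the median was 1.24 on the log2 scale beside -0.00 for all genes. UTP20 differed by 1.51 ± 0.21 (adjusted p 1.34e-05), with 58.4, 46.1 and 40.5 CPM in AzC-treated WT and 117.3, 118.2 and 134.1 CPM in AzC-treated HSF1+. UTP23 differed by 1.74 ± 0.49 (adjusted p 0.0132), NOP13 by 1.71 ± 0.48 (0.0127) and NOP7 by 1.77 ± 0.62 (0.0411). The HSF1+ values of UTP20 and UTP23 lay wholly above those of WT. This comparison uses all 4 deep libraries, and with those libraries thinned to a depth nearer the others the count was 15.

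That count of 16 depended on single libraries. Shares of all genes are not given for the refits without 1 library or with the 4 groups alone. It was 6 without WT AzC replicate 2 or 3, 7 without HSF1+ untreated replicate 3, and 8 without WT untreated replicate 1, HSF1+ untreated replicate 2, HSF1+ AzC replicate 1 or HSF1+ AzC replicate 3. It was 9 without WT untreated replicate 2, 26 without WT AzC replicate 1, 7 with scaling by library size alone (5.12% of all genes) and 41 when those 4 groups were fitted alone. With replicate as a block the count was also 41, beside 18% of all genes, though same-numbered pairs did not all correlate above 0.1 here. NOP7 was not called in 9 of the 12 refits that each left out 1 library (adjusted p 0.0525 to 0.108).

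Against HSF1+, which shares its cassette, hsf1∆ had a shallower AzC response in 5 members (edgeR adjusted p below 0.05), where 7.55% of all genes differed in that direction. All 41 differences were above 0, 12 had an unadjusted p below 0.05, and the median was 0.82 beside 0.00 for all genes. The 5 were UTP20 (0.84 ± 0.20, adjusted p 0.00379), NOP6 (0.89 ± 0.25, 0.0108), UTP30 (1.06 ± 0.32, 0.0202), NOP10 (0.80 ± 0.26, 0.0282) and NOP9 (0.82 ± 0.28, 0.0409). Their count was 2 without HSF1+ untreated replicate 1 or hsf1∆ AzC replicate 1, 3 without hsf1∆ untreated replicate 3 or HSF1+ AzC replicate 2, 8 without hsf1∆ AzC replicate 2, and 41 when those 4 groups were fitted alone. UTP20 and NOP6 were called in every one of these refits, for which shares of all genes are not given. Only 1 passed a 2-fold minimum too, against 0.557% of all genes. NOP13 had the largest difference, 1.30 ± 0.48, and missed the threshold (adjusted p 0.0528).

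For heat shock, few members were called between the same strains, although 40 of the 41 differences were below 0 and 1 above. hsf1∆ responded more deeply than HSF1+ in UTP22 (-0.76 ± 0.19, edgeR adjusted p 0.0034) and less deeply in UTP20 (0.72 ± 0.21, adjusted p 0.0138), where 14.2% and 8.04% of all genes differed in these directions. UTP13 had the lowest difference, -0.93, and was not called. The SE had a median of 0.54 over the 41 members, above that of UTP22 and UTP20. UTP22 had 77.5, 71.6 and 73.3 CPM in heat-shocked hsf1∆ and 127.3, 96.9 and 110.2 CPM in heat-shocked HSF1+. UTP20 had 39.5, 39.3 and 33.8 CPM in the former and 23.0, 16.7 and 21.5 CPM in the latter. Neither gene's libraries overlapped between the strains after heat shock, and they lay in opposite orders. Over all 41 the median difference was -0.52 beside -0.07 for all genes, and it was -1.24, -0.23 and -0.26 without hsf1∆ heat-shock replicate 1, 2 or 3 and -0.05 without HSF1+ heat-shock replicate 1. The lower count was 8 without hsf1∆ heat-shock replicate 1, where the share of all genes is not given. UTP20 was lost without HSF1+ heat-shock replicate 2 (edgeR adjusted p 0.0565).

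HSF1+ set against WT on heat shock gave 1 member with a shallower response, UTP22 (0.66 ± 0.19, edgeR adjusted p 0.0184), where 4.21% of all genes differed in that direction. The median of the 41 was 0.63 beside 0.00, but 1.32 without WT heat-shock replicate 1, 0.28 without WT heat-shock replicate 3 and 0.18 without HSF1+ heat-shock replicate 1. NOP14, a small-subunit factor, had the largest difference without a call (0.99). The count was 21 without WT heat-shock replicate 1, 2 without WT untreated replicate 3, HSF1+ untreated replicate 1 or HSF1+ heat-shock replicate 2, and 0 without HSF1+ untreated replicate 3, WT heat-shock replicate 2 or 3, or HSF1+ heat-shock replicate 1. Shares of all genes are not given for these refits.

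The AzC and heat-shock libraries of each strain were also set against each other. In WT 17 of 41 were higher in AzC than in heat shock (edgeR; 30.5% of all genes), with a median difference of 0.77 on the log2 scale beside -0.00 and a range from -0.18 for NOP53 to 1.69 ± 0.16 for UTP20. The replicate numbers were taken to pair these libraries, and 26 were higher with replicate as a block, beside 33.6% of all genes. A 2-fold minimum left 10, against 7.86% of all genes. The WT count was 34 (median 1.43) without heat-shock replicate 1, and 5 without heat-shock replicate 2, heat-shock replicate 3 (median 0.36) or AzC replicate 1 (median 0.42). Shares of all genes are not given for refits without 1 library. The WT ranges were wholly above in 5 members, against 30% of all genes. In hsf1∆ all 41 were higher (38.3% of all genes; wholly above in 41, against 38.6%), with a median of 2.72 beside 0.01. In HSF1+ 35 were higher (34.7%; wholly above in 40, against 35.2%), with a median of 1.24 beside -0.00. In the strain labelled msn2/4∆ 26 were higher (28.1%; wholly above in 27, against 32.9%), with a median of 1.01 beside -0.01, and 17 were higher without its heat-shock replicate 2. NOP53 was the lowest of the 41 in all 4 strains, at -0.18, 1.45, 0.44 and -0.33 in that order.

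In untreated cells, hsf1∆ lay below HSF1+ for most of these genes, though few differences passed the test. The libraries of hsf1∆ lay wholly below in 29 of 41 members and wholly above in 6, against 31.1% and 24.4% of all genes, and the median difference was -0.38 on the log2 scale beside -0.05. NOP1 had 567, 644 and 506 CPM in hsf1∆ and 761.5, 801 and 691 CPM in HSF1+. The fit called 1 lower, UTP30 (-0.63 ± 0.23, edgeR adjusted p 0.0302), and 1 higher, NOP19 (0.48 ± 0.19, 0.0447), where 18.9% and 19.5% of all genes were called. Without any 1 of the 6 libraries NOP19 was lost (adjusted p 0.075 to 0.112), and UTP30 was lost without hsf1∆ untreated replicate 3 or HSF1+ untreated replicate 1. The fit to these 2 groups alone called 27 lower and 7 higher, among them NOP13 (lower) and UTP7 (higher). Its shares of all genes are not given.

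The sign of that difference followed the chromosome. The median of non-member genes, hsf1∆ against HSF1+, was 0.60 on chromosome V, 0.52 on VII and 0.29 on II, and between -0.14 and -0.02 on the others. The 10 members on II, V and VII stood between 0.03 and 0.52, and the 31 members elsewhere were all below 0. After the median of its chromosome was subtracted from each member, a step chosen after seeing the data, all 41 were below 0, from -0.55 for NOP13 to -0.05 for NOP19, with a median of -0.29. Likewise, HSF1+ against WT stood apart on chromosome XIII, where 455 non-member genes had a median of 0.97 against -0.06 to -0.02 on the other chromosomes. Its members UTP14 (284, 291 and 235 CPM in WT, 574.5, 505.5 and 436.0 in HSF1+) and UTP15 (167.7, 194.6 and 163.5 CPM in WT, 337, 340 and 306 in HSF1+) stood at 0.90 ± 0.47 and 0.90 ± 0.30, wholly above WT in both genes. In each HSF1+ untreated library the XIII median lay between 0.95 and 0.98, and in each hsf1∆ one between 0.86 and 0.88, relative to WT. DNA copy number was not tested.

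**Figure D5:**
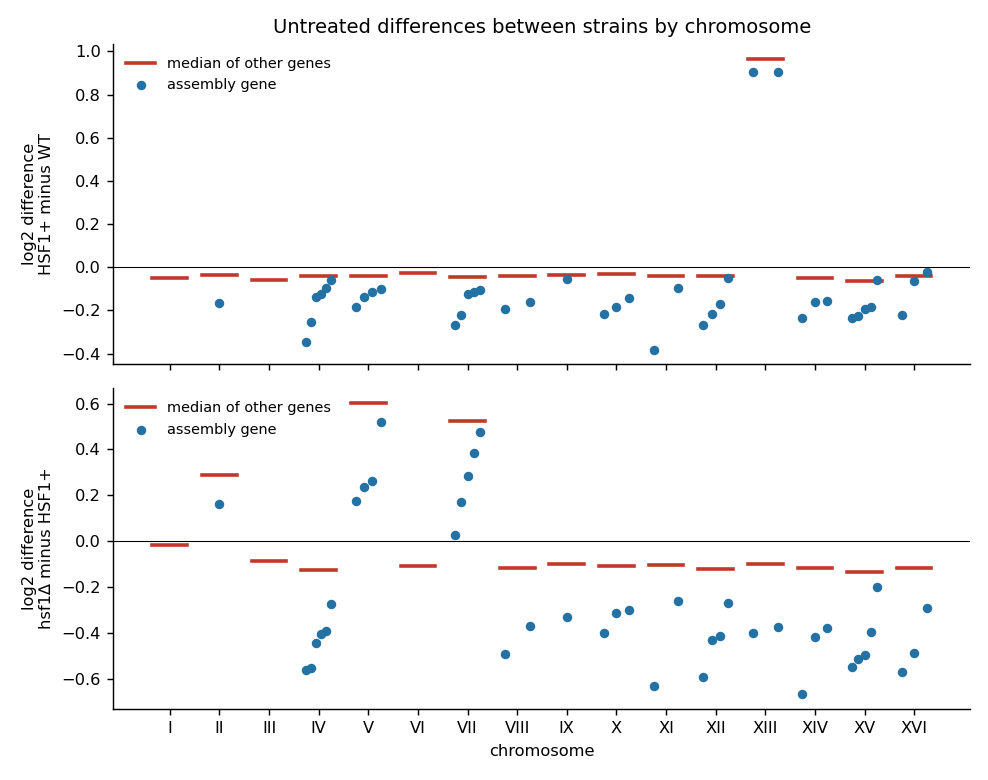
Log2 difference between untreated strains by chromosome, HSF1+ minus WT above and hsf1∆ minus HSF1+ below, with 1 point per assembly gene and a red bar at the median of the other genes of that chromosome. UTP14 and UTP15 lie with the XIII bar near 0.97, and the members on II, V and VII are the only ones above 0 in the lower panel.

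Of the 41 members, UTP15 was called higher in untreated HSF1+ than in WT (edgeR adjusted p 0.0248) and 0 lower, where 17.5% of all genes were called higher and 12.6% lower. The median was -0.16 beside -0.03, and it ran from -0.24 without WT untreated replicate 3 to -0.08 without HSF1+ untreated replicate 3. The replicate numbers were taken to pair these libraries. With the block 2 were higher (UTP14 and UTP15) and 1 lower (UTP30, edgeR adjusted p 0.032), beside 20.2% and 17.1% of all genes. UTP15 was lost without WT untreated replicate 1 or 3 or HSF1+ untreated replicate 1 or 2 (adjusted p 0.0539 to 0.0748).

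The other genes of the pathway had medians close to those of the members. A list of other assembly factors (53 of the small subunit, 64 of the large subunit and 13 of snoRNPs, with PRP43 on both of the former lists) had median log2 changes of -2.67, -2.49, -2.06 and -3.54 on heat shock in WT, hsf1∆, HSF1+ and the strain labelled msn2/4∆. After AzC the medians were -2.09, 0.02, -0.86 and -2.55. In heat-shocked WT 98.4% of them fell and 2 rose, where 38.1% of all genes fell and 42% rose. In AzC-treated hsf1∆ 0 were called in either direction, where 0.0164% of all genes were called lower and 0% higher. KRE33, the rRNA acetyltransferase, fell most in WT (-4.49), and the 2 that rose were the mRNA export factor MEX67 (0.19) and PIH1 (0.55), a subunit of the R2TP chaperone complex. RNA polymerase I and its factor RRN3 (8 genes) had medians of -2.96, -2.90, -2.25 and -4.21 on heat shock and -2.32, 0.03, -0.87 and -2.95 after AzC, with RPA190 at -4.59 and RPA14, the only 1 of the 8 not called, at -0.22 in heat-shocked WT.

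The 137 cytosolic ribosomal protein genes had medians of -3.47, -3.84, -2.78 and -3.78 on heat shock in WT, hsf1∆, HSF1+ and the strain labelled msn2/4∆, against -2.72, -2.73, -2.04 and -3.74 for the assembly genes. After AzC they were -1.40, -0.04, -0.56 and -1.81. The difference of heat-shock responses between the strain labelled msn2/4∆ and WT had a median of -0.35 over ribosomal protein genes (11 lower, 2 higher), against -0.90 over the other assembly factors (13 lower, 3 higher) and -1.09 over the 41 members. Of all genes, 13.9% were called lower there and 16.3% higher. Between hsf1∆ and HSF1+ the median difference was -1.06 over ribosomal protein genes (78.8% lower, 0 higher), -0.40 over the other assembly factors (3 lower, 1 higher) and -0.52 over the members. Of all genes, 14.2% were called lower there and 8.04% higher. Between HSF1+ and WT under AzC, 83.2% of the ribosomal protein genes and 41.1% of the other factors had a shallower response, against 11.3% of all genes, with medians of 0.84 and 1.20. Many ribosomal protein genes have near-identical copies whose reads the counting could have split.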

How the data were processed

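Poly-A RNA was sequenced from 36 libraries, 12 groups of 3. The authors deposited raw counts per gene for 7126 genes. Per the submitters' processing notes, FastQC, Trim Galore, STAR and Salmon were used with build R64; their versions and roles, the counter, the annotation and any strand setting: not given in the sources used here. All values were whole numbers and were used as counts.

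Counts were fitted with edgeR 4.0.16 (R 4.3.3, limma 3.58.1): TMM normalization, the filterByExpr filter by group (6109 genes kept), 12 group means over all 36 libraries and the quasi-likelihood test, with Benjamini-Hochberg adjustment over all 6109 genes. A call is an adjusted p below 0.05 with no minimum fold. Responses were compared between strains by interaction contrasts. CPM values use TMM-adjusted library sizes, and logs of single libraries a prior count of 2. Gene lists were summarised by counts and medians only. The procedure was tested on simulated data. Alternatives were DESeq2 1.42.0 and other scalings, filters, blocks and sample sets.

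The members and lists were chosen with earlier results of these data known. Any member could be named, with per-library values for 16 chosen members and the lowest and highest of each comparison; members with an unusual spread, and the regulators, were picked after their values were seen. The replicate numbers were taken to pair libraries where deviations of every same-numbered pair correlated above 0.1, which held in 8 of 22 contrasts (r from 0.113 there; -0.0979 to 0.65 over all). Promoter windows were read from the RefSeq R64 genome. Of the table's names, 6048 matched RefSeq and 1078 did not. No pair of replicates agreed within sampling noise.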

Additional observations from a re-analysis of the deposited data

Results flagged for a closer look

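Several differences between strains in the response to a treatment passed the test of the difference itself. HSF1+ and WT differed in their AzC response in 16 of the 41 assembly genes, where 11.3% of all genes differed in that direction, among them NOP13 (1.71 on the log2 scale), NOP7 (1.77), UTP20 (1.51) and UTP23 (1.74), each with the shallower response in HSF1+. hsf1∆ and HSF1+ differed in their AzC response in 5 members, beside 7.55% of all genes. In their heat-shock response they differed in 2 members, 1 in each direction, beside 14.2% lower and 8.04% higher. HSF1+ and WT differed in their heat-shock response in 1 member, beside 4.21%. The members' shares under heat shock were below those of all genes. With 1 library left out in turn, the counts of 16, 5 and 1 ran from 6 to 26, 2 to 8 and 0 to 21. NOP7 was not called in most of these refits, nor with scaling by library size alone (edgeR adjusted p 0.0577).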

How the results depend on the processing

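All 41 members fell on heat shock in each strain, and after AzC in the strain labelled msn2/4∆ and WT, under every alternative run except that a 2-fold minimum left 40 for AzC in WT, without UTP22 (-0.94). Apart from that minimum, no call of a single member changed there. Over 351 values of single genes and 5088 alternatives, 4873 kept their direction and side of the threshold, 91 lost the call, and 1 changed sign, while the rest gained a call. NOP53, AzC minus heat shock in WT, ran from -0.46 without WT AzC replicate 1 to 0.19 without WT heat-shock replicate 1. The causes of the shifts below were not tested. The next paragraph lists only counts that moved from the main fit, and a direction not named stayed at or near its main count. For heat-shocked cells labelled msn2/4∆ minus WT that main count was 32 lower, which moved there only with the compared groups fitted alone.

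With the replicate block, members called were 40 lower for AzC in HSF1+, 19 lower for the heat-shock response of the strain labelled msn2/4∆ minus WT, 3 lower for heat shock in hsf1∆ minus HSF1+, 14 higher for AzC in hsf1∆ minus HSF1+, 5 and 41 higher for HSF1+ minus WT under heat shock and AzC, 5 lower for untreated hsf1∆ minus HSF1+, 1 lower and 2 higher for untreated HSF1+ minus WT, 1 higher for heat-shocked cells labelled msn2/4∆ minus WT, and 26 higher for AzC minus heat shock in WT. The shares of all genes called with the block were, in that order, 26.7%, 18.6%, 18.5%, 15.6%, 9.17% and 18%, 23.8%, 17.1% and 20.2%, 30.8% and 33.6%. With replicates 2 and 3 only, members called were, in that order, 40, 19 (and 2 higher), 28, 28, 28 and 41, 9 (and 4 higher), 1 and 2, 2 higher, and 37. With the compared groups fitted alone they were 41 for AzC in HSF1+, 41 for AzC in hsf1∆ minus HSF1+, 0 and 41 for HSF1+ minus WT under heat shock and AzC, 27 lower and 7 higher for untreated hsf1∆ minus HSF1+, 3 lower and 2 higher for untreated HSF1+ minus WT, 0 for heat-shocked cells labelled msn2/4∆ minus WT, and 5 for AzC minus heat shock in WT. Shares of all genes are not given for these 2 settings. Their counts therefore cannot be told apart from a change in calls over all genes. A 2-fold minimum left 4 for AzC in HSF1+, 1 for AzC in hsf1∆ minus HSF1+, 10 for AzC minus heat shock in WT, and 0 for both directions of heat shock and of the untreated level in hsf1∆ minus HSF1+ and for HSF1+ minus WT under heat shock and untreated. Scaling by library size alone gave 0 and 7 for HSF1+ minus WT under heat shock and AzC and 0 lower for untreated hsf1∆ minus HSF1+. The shares of all genes called there were 2.01%, 5.12% and 7.99%, in that order. DESeq2 gave 2 higher for heat shock in HSF1+ minus WT, beside 5.86% of all genes. It gave 2 lower and 0 higher for untreated hsf1∆ minus HSF1+, beside 23.3% and 18%, where RLE size factors gave 0 higher.

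Leaving out 1 library in turn gave 8 to 17 lower for AzC in HSF1+. Shares of all genes are not given for these refits, so their counts cannot be told apart from a change in calls over all genes. The heat-shock response of the strain labelled msn2/4∆ minus WT had 0 to 24 lower and 0 to 2 higher, and the direct comparison after heat shock 0 to 32 lower and 0 to 3 higher. For hsf1∆ minus HSF1+ the ranges were 1 to 8 lower and 0 to 1 higher under heat shock, 2 to 8 higher under AzC, and 0 to 1 lower and 0 to 0 higher untreated. For HSF1+ minus WT they were 0 to 21 higher under heat shock, 6 to 26 under AzC and 0 to 1 untreated. AzC minus heat shock gave 5 to 34 higher in WT and 17 to 35 in the strain labelled msn2/4∆.

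Scaling by library size alone moved the median of all genes by 0.14 (AzC in WT), 0.16 and 0.20 (heat shock and AzC in the strain labelled msn2/4∆), 0.12 (untreated hsf1∆ minus HSF1+), and -0.12 and -0.18 (HSF1+ minus WT under heat shock and AzC). Relative to that median the members' median was -2.04, -3.85, -2.64, -0.33, 0.61 and 1.24 in that order. With 3 libraries a group and heat-shock replicates this far apart, a miss of the threshold does not show equal responses.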

Other observations

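Coding length and response were described across the 41 members, over 22 contrasts, by rank and linear correlation. For heat shock, Spearman rho was -0.32 and Pearson r -0.37 in WT, and -0.38 and -0.16 in the strain labelled msn2/4∆, while AzC in WT gave -0.26 and -0.06. The highest rho was that of the heat-shock response of HSF1+ minus WT (0.51, r 0.32), ahead of AzC minus heat shock in the strain labelled msn2/4∆ (0.48, r 0.23) and in WT (0.39, r 0.51). The lowest rho was that of the heat-shock response of hsf1∆ minus HSF1+, at -0.40, with r of the opposite sign at 0.26. These describe genes that share the same libraries, and many of the contrasts share groups.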
